A study of Mus musculus with 2 samples.

Results

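The 40 genes described here are expressed by astrocytes, the star-shaped glial cells that tile the whole brain. They were chosen by the symbol in the posterior transcript names, out of 53055 genes joined by gene identifier between 2 RNA sequencing libraries of mouse brain tissue, each made from polyadenylated RNA. The posterior library came from tissue taken at the level of posterior slices that had been imaged by MERFISH, which counts RNA molecules under the microscope, and the anterior library from tissue at the level of anterior slices. The position is stated in the extraction protocols only, and whether both tissues came from 1 animal is not stated. Both were labelled as wild type C57BL/6J, male and 14 weeks of age, with no treatment named, and each position had 1 library, so no spread between animals could be measured and no p-value was computed. Position, library and quantification program also cannot be told apart. The posterior library held 147138183 estimated fragments and the anterior library 43558839, so the posterior values carry the smaller counting error.

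Astrocytes take up transmitters and potassium, make glutamine, store glycogen, and wrap vessels with endfeet rich in water channels. They are coupled to each other through gap junctions. Astrocytes of the telencephalon (cortex, hippocampus, striatum) and of the diencephalon and brainstem are known to differ in a set of genes laid down by regional origin. Injury or inflammation drives a further, reactive state marked by intermediate filaments. The genes are described below by what their products do, and then by region and reactivity.

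Several of the genes make more than 1 transcript, and the coding sequences that set their main transcripts apart are shown first for 3 genes, since the posterior file resolves them. Transcript coordinates and coding sequences are those of GENCODE vM21 (GRCm38, the build also called mm10). Slc4a4 encodes the electrogenic sodium bicarbonate cotransporter NBCe1, whose variants are known to differ at the carboxyl end. Slc4a4-207 (chr5:88886818-89239653, plus strand) and Slc4a4-208 (chr5:88887299-89235794) share their first 3099 coding bases. These are followed by 138 further coding bases in Slc4a4-207 and 183 in Slc4a4-208, without the stop codon. The last bases before the split are in lower case and the bases after it in capitals. The closing capitals of Slc4a4-207, from GAGAAAGATCC on, are also the opening capitals of Slc4a4-208, where they are read in another frame.
Slc4a4-207: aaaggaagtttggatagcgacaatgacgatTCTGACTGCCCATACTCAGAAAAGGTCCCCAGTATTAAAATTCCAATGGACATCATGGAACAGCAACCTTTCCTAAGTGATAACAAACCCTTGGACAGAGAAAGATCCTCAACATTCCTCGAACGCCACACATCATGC
Slc4a4-208: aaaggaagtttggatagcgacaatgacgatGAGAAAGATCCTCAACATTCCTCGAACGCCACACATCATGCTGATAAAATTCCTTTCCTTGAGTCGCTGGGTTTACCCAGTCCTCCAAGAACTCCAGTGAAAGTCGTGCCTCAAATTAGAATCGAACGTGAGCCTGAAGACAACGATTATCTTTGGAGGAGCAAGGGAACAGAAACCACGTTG
Sparc, which encodes a secreted calcium-binding matrix protein, and Fgfr3, a receptor for fibroblast growth factors, each have a pair of transcripts whose coding sequences differ by 3 bases, in capitals below. In Sparc-201 (chr11:55394500-55420080, minus strand) they follow coding base 60 and are lacking in Sparc-202 (chr11:55394500-55419898). In Fgfr3-209 (chr5:33721791-33737063, plus strand) they follow coding base 1248 and are lacking in Fgfr3-201 (chr5:33721724-33737067). The extra bases read CAG in both genes.
Sparc-201: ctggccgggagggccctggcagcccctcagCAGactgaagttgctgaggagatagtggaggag
Sparc-202: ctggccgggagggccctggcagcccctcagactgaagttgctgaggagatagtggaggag
Fgfr3-209: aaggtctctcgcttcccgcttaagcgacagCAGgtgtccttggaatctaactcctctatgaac
Fgfr3-201: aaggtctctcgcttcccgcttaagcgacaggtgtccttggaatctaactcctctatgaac

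All 40 genes were detected in both libraries. The lowest count was that of Gli1, a transcription factor switched on by hedgehog signalling, with 475 posterior and 90 anterior fragments. Levels between genes are given as FPKM, fragments per kilobase and per 1000000 fragments, within a library. The anterior FPKM are as deposited, and the total they were scaled to differs from the anterior total given above. Each gene entered the comparison by reaching an FPKM of 1 in either library, and Gli1 did so through the posterior library alone, with an FPKM of 1.20 in posterior and 0.493 in anterior tissue. The median FPKM of the 40 genes was 26.2 in the posterior library, beside 12.1 over the 13339 protein-coding genes compared, and 12 in the anterior library, beside 7.03. In the posterior library 9 of the 40 lay among the highest 10% of genes, and in the anterior library 5. Cst3, the protease inhibitor cystatin C, was the highest in the posterior library with an FPKM of 992, and had 565 in the anterior library. Sparcl1, the secreted synapse-promoting protein hevin, had an FPKM of 590 in the posterior library and, with 631, was the highest in the anterior library. Glul, glutamine synthetase, had an FPKM of 523 in posterior and 459 in anterior tissue. Together these 3 genes held 52.9% of the 40 genes' fragment share in posterior tissue and 63.4% in anterior tissue. All 40 genes together took 0.682% of posterior and 0.555% of anterior protein-coding fragments.

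The libraries were compared by fragment share, the fragments of a gene per 1000000 fragments in protein-coding genes (FPM). This was done because the FPKM of the libraries are scaled to different lengths. Their totals were also taken differently. The log2 difference is posterior over anterior, with 0.5 added to each share and centred on the median gene. Ratios are of shares without that addition, and their 95% exact Clopper-Pearson intervals cover counting error only. At least 2-fold higher in posterior tissue were 6 of the 40 genes, or 15%, where 8.19% of all compared genes were. At least 2-fold higher in anterior tissue was 1 gene, or 2.5%, where 1.84% of all were. The median difference of the 40 genes was 0.37, against 0 for all genes by the centring, with 32 genes above and 8 below 0. At 1.5-fold the counts were 13 higher in posterior tissue (32.5%, beside 15.1% of all) and 2 in anterior tissue (5%, beside 5.53%). By FPKM 8 genes passed 2-fold in posterior tissue (14.5% of all genes did) and 2 in anterior tissue (7.11% of all). Overlapping exons or shared sequence touched at least 5% of 8 genes (Slc6a9, Slc7a10, Aldh1l1, Glul, Cyp4f15, Phkg1, Fgfr3 and Gli1); among the other 32, 5 were past 2-fold in posterior tissue (4.75% of 8930 such genes were) and 1 in anterior tissue (1.55% were). By FPKM the median of the 40 was 0.11 and 12 of the 40 differences had the other sign, so that the signs of these 12, each under 2-fold on both scales, depend on the scale. In bulk tissue fewer cells of a type and less RNA per cell cannot be told apart.

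**Figure D1:**
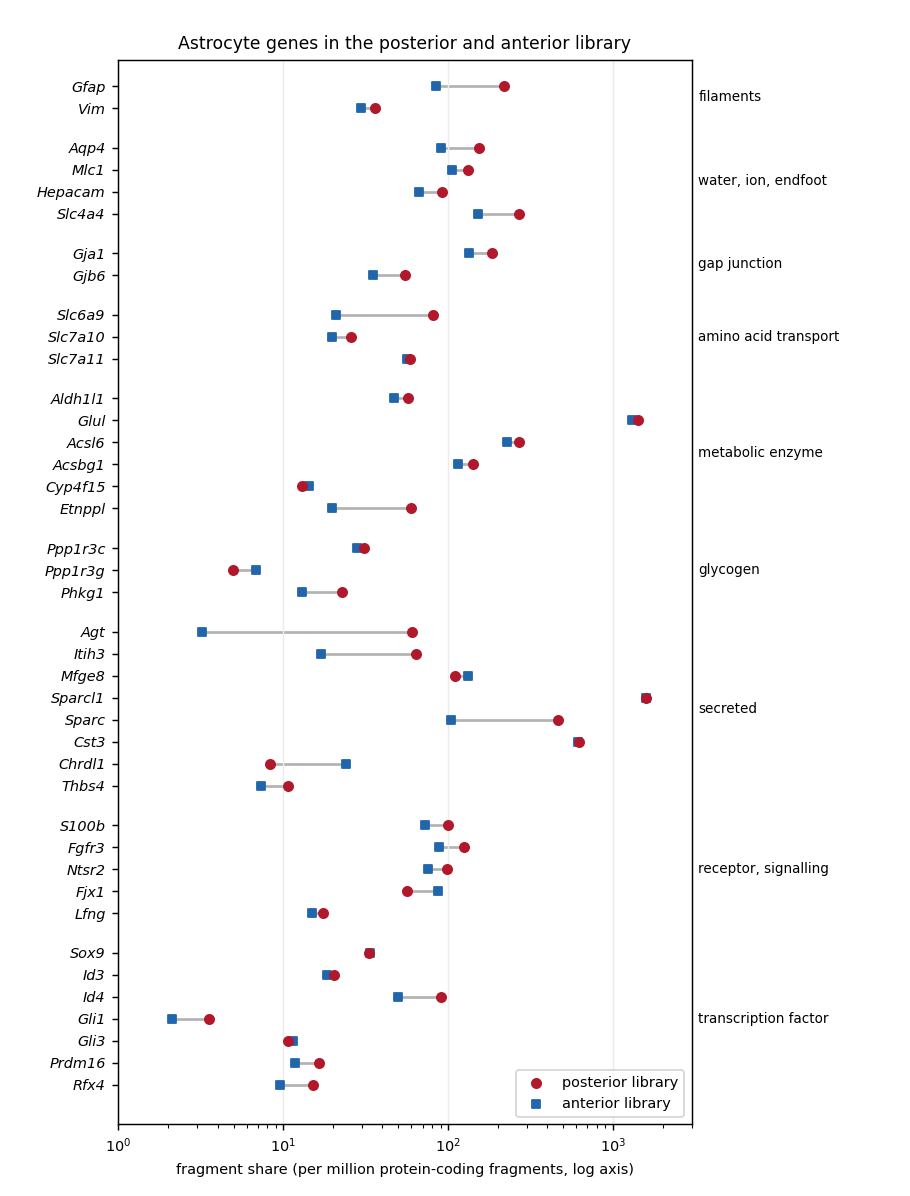
Fragment share of each astrocyte gene, in FPM on a log axis, in the posterior library (red circles) and the anterior library (blue squares), grouped by the role of the product. Most pairs lie close together, with Agt (60.3 in posterior tissue and 3.23 in anterior tissue) the widest apart and Chrdl1 (8.31 in posterior and 24.0 in anterior tissue) the widest in the other direction.

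Intermediate filaments gave 1 gene past 2-fold. Gfap, the glial fibrillary acidic protein, had 29510 posterior and 3600 anterior fragments, shares of 219 FPM in posterior and 84.8 in anterior tissue and a ratio of 2.59 (2.50 to 2.68). Vim, the filament vimentin, which endothelial, ependymal and meningeal cells also make, had shares of 36.1 FPM in posterior and 29.8 in anterior tissue, a ratio of 1.21 (1.14 to 1.29). The Gfap shares stood apart and the Vim shares lay close together.

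The genes for water, ion and volume control at the endfeet lay within 2-fold. Aqp4, the water channel of the endfeet, had shares of 155 FPM in posterior tissue and 90.8 in anterior tissue, a ratio of 1.71 (1.65 to 1.77). Slc4a4 had 270 FPM in posterior and 153 in anterior tissue, a ratio of 1.76 (1.72 to 1.81). Mlc1 and Hepacam encode membrane proteins that bind each other and are mutated in a human leukodystrophy with cysts. Mlc1 had 132 FPM in posterior and 106 in anterior tissue and Hepacam 92.5 FPM in posterior and 66.4 in anterior tissue. By share all 4 were higher in the posterior library, but by FPKM the differences of Aqp4 (-0.02), Mlc1 (-0.50) and Hepacam (-0.30) were below 0.

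The gap junction genes Gja1 (connexin 43) and Gjb6 (connexin 30) also lay within 2-fold by share. Gja1 had 184 FPM in posterior tissue and 135 in anterior tissue, a log2 difference of 0.45 by share and 1.33 by FPKM. Gjb6 had 54.7 FPM in posterior and 35.2 in anterior tissue, a difference of 0.62 by share and 0.82 by FPKM. For Gja1 the anterior gene length was 3.70 times the posterior effective length, beside 1.08 times for Id4.

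Among the amino acid transporters, Slc6a9 stood apart. Slc6a9 encodes the glycine transporter GlyT1 and had 80.7 FPM in posterior tissue and 20.9 in anterior tissue, a ratio of 3.86 (3.60 to 4.13). Of its exonic bases 30.2% lie under exons of another gene and 28.4% of its 31-base words occur in another gene's transcripts, so its counts may depend on how shared fragments were assigned. Slc7a10, the exchanger Asc-1 for small neutral amino acids, had 25.9 FPM in posterior and 19.9 in anterior tissue. Slc7a11, the cystine and glutamate exchanger xCT, had 58.5 FPM in posterior and 56.6 in anterior tissue, and its ratio of 1.03 had an interval that includes 1 (0.987 to 1.08).

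Of the 6 metabolic enzymes, 1 passed 2-fold. Etnppl, the phospho-lyase that breaks down phosphoethanolamine, had 59.8 FPM in posterior tissue and 19.8 in anterior tissue, a ratio of 3.02 (2.81 to 3.24). The other enzymes lay within 1.5-fold. Glul had 1414 FPM in posterior and 1312 in anterior tissue, Acsl6 (a long-chain acyl-CoA synthetase) 268 FPM in posterior and 229 in anterior tissue, and Acsbg1 (the acyl-CoA synthetase bubblegum) 141 FPM in posterior and 115 in anterior tissue. Aldh1l1, a folate enzyme much used as a pan-astrocyte marker, had 57.4 FPM in posterior and 46.8 in anterior tissue. Cyp4f15, a cytochrome P450, had 13.0 FPM in posterior and 14.3 in anterior tissue, with a ratio of 0.914 (0.833 to 1.00).

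The glycogen genes lay within 2-fold and on both sides of 0. Phkg1, a catalytic subunit of phosphorylase kinase, which triggers glycogen breakdown, had 22.6 FPM in posterior tissue and 13.0 in anterior tissue. Its log2 difference was 0.77 by share and 1.51 by FPKM, and as low as 0.13 under the alternative settings. Of its posterior fragments 41.6% were in transcripts not annotated as protein coding. Ppp1r3c and Ppp1r3g encode subunits that bring protein phosphatase 1 to glycogen. Ppp1r3c had 30.7 FPM in posterior and 28.2 in anterior tissue, and Ppp1r3g 4.93 FPM in posterior and 6.81 in anterior tissue, a ratio of 0.724 (0.630 to 0.834).

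Secreted proteins held the widest contrasts in both directions. Agt encodes angiotensinogen, the precursor of angiotensin, which astrocytes make in the brain. It had 8113 posterior and 137 anterior fragments, shares of 60.3 FPM in posterior and 3.23 in anterior tissue and a ratio of 18.7 (15.8 to 22.3). Sparc had 467 FPM in posterior and 104 in anterior tissue, a ratio of 4.48 (4.34 to 4.62), and Itih3, a heavy chain of the hyaluronan-binding inter-alpha-trypsin inhibitor, 63.9 FPM in posterior and 16.9 in anterior tissue, a ratio of 3.79 (3.51 to 4.09). Chrdl1, a secreted antagonist of bone morphogenetic proteins, was the gene past 2-fold in the anterior library. It had 8.31 FPM in posterior tissue and 24.0 in anterior tissue, a ratio of 0.347 (0.318 to 0.378).

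The most abundant secreted products had like shares in both libraries. Sparcl1 had 1578 FPM in posterior tissue and 1596 in anterior tissue, a ratio of 0.989 (0.981 to 0.998). Cst3 had 621 FPM in posterior and 615 in anterior tissue, with a ratio of 1.01 whose interval includes 1 (0.996 to 1.02). Mfge8, which bridges phosphatidylserine on dying cells to phagocytes, had 110 FPM in posterior and 132 in anterior tissue, a difference of -0.26 by share and 0.22 by FPKM. Thbs4, a thrombospondin of the matrix, had 10.7 FPM in posterior and 7.35 in anterior tissue.

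Receptors and signalling genes all lay within 2-fold by share. S100b, a calcium-binding protein, had 99.3 FPM in posterior tissue and 72.0 in anterior tissue. Fgfr3 had 125 FPM in posterior and 87.9 in anterior tissue, and Ntsr2, a neurotensin receptor, 99.0 FPM in posterior and 76.1 in anterior tissue. Lfng, a sugar transferase that modifies Notch, had 17.4 FPM in posterior and 14.9 in anterior tissue. Fjx1, the homologue of the fly planar polarity kinase four-jointed, had 56.1 FPM in posterior and 86.6 in anterior tissue, a difference of -0.63 by share and -1.45 by FPKM. Fjx1 was the second gene past 1.5-fold in the anterior library, after Chrdl1.

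None of the 7 transcription factors passed 2-fold. Id4, an inhibitor of basic helix-loop-helix factors, had the largest difference of them by share, with 90.8 FPM in posterior tissue and 49.9 in anterior tissue, a difference of 0.85 by share and -0.02 by FPKM. Id3, of the same family, had 20.3 FPM in posterior and 18.4 in anterior tissue. Sox9, which drives the switch to glial fate, had 33.1 FPM in posterior and 33.4 in anterior tissue, a ratio of 0.992 (0.934 to 1.05). Gli3, mostly a repressor of hedgehog targets, had 10.7 FPM in posterior and 11.5 in anterior tissue and an interval that includes 1 (0.843 to 1.04). Gli1 had 3.53 FPM in posterior and 2.12 in anterior tissue, a ratio of 1.67 (1.33 to 2.11). Prdm16, a zinc finger factor, had 16.5 FPM in posterior and 11.8 in anterior tissue, and Rfx4, a factor of cilia and neural patterning, 15.1 FPM in posterior and 9.56 in anterior tissue.

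Genes known from diencephalic astrocytes were higher in the posterior library. All 5 on that list (Agt, Sparc, Slc6a9 and Itih3, which are among the 40, and Slc6a11) were at least 2-fold higher there by share, where 8.19% of all compared genes were. Their median difference was 1.92, with a range of 1.30 to 4.03. This list and those below were chosen with earlier results of these data known, so their counts are no independent evidence of a regional pattern. Slc6a11, the GABA transporter GAT3, had 294 FPM in posterior tissue and 119 in anterior tissue, a ratio of 2.47 (2.40 to 2.55), but a difference of 0.71 by FPKM, so that 4 of 5 passed on that scale. Outside that list 2 of the other 36 astrocyte genes, Gfap and Etnppl, were at least 2-fold higher in posterior tissue, or 5.56%, beside 8.19% of all genes. At 1.5-fold, a threshold applied to these 36 after seeing the data, 9 were, or 25%, beside 15.1% of all genes. When differences were centred on the median of 38 other astrocyte genes, an alternative chosen after seeing the data, all 5 remained past 2-fold with a median of 1.66.

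Of 4 genes known from telencephalic astrocytes, 0 were at least 2-fold higher in posterior tissue and 1, Chrdl1, in the anterior library, with a median difference of -0.34. Of all compared genes 8.19% were in posterior tissue and 1.84% in anterior tissue. Lhx2, a homeobox factor that cortical neurons also express, had 41.2 FPM in posterior tissue and 55.2 in anterior tissue, a ratio of 0.747 (0.711 to 0.784). All 4 lay below 0 by share, while Mfge8 lay above 0 by FPKM.

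Lists of reactive astrocyte genes were read against the 8.19% of all compared genes past 2-fold in posterior tissue and the 1.84% in anterior tissue. Of 13 genes of the pan-reactive list 10 reached the FPKM minimum, 3 of them (Lcn2, Cd44 and Osmr) through the posterior library alone. At least 2-fold higher in posterior tissue were 3 of them, Lcn2, Gfap and Hspb1, and 0 were in the anterior library, with a median of 0.68. Among the 7 past the minimum in both libraries, 2 were, with a median of 0.46. Lcn2, the iron-carrier binding protein lipocalin 2, had 1007 posterior and 4 anterior fragments, shares of 7.49 FPM in posterior and 0.0942 in anterior tissue and a ratio of 79.5 (30.9 to 292). Hspb1, a small heat shock protein, had 9.31 FPM in posterior and 3.51 in anterior tissue, with 55.4% of its words in other genes. Of the A1 list, genes induced in astrocytes by inflammation, 1 of 10 compared, 3 of which passed the minimum through the posterior library alone, was past 2-fold. That gene, Amigo2, was at least 2-fold higher in posterior tissue, with 29.4 FPM in posterior and 8.95 in anterior tissue, while by FPKM 0 of the 10 were. The most abundant A1 gene by FPKM, H2-D1, had 37.8 FPM in posterior and 39.5 in anterior tissue. Of the A2 list, genes induced after ischaemia, 5 of 12 reached the minimum, 1 of them through the posterior library alone. Of the 5, 0 passed 2-fold in either direction, with a median of -0.16 by share and 0.05 by FPKM. Of the 7 genes under the minimum 1 was past 2-fold, Cd109, a surface glycoprotein, with 4.52 FPM in posterior and 0.542 in anterior tissue, a ratio of 8.34 (5.51 to 13.3). Emp1, an epithelial membrane protein also under the minimum, had 2.56 FPM in posterior and 1.06 in anterior tissue. The other A2 genes under the minimum had lower shares in posterior tissue. Among these only the ratio interval of B3gnt5 (0.378 to 0.759) lay below 1. Of the pan-reactive genes under the minimum, Steap4 and Cxcl10 were higher in posterior tissue. Timp1, with 24 posterior and 32 anterior fragments, was lower there, with a ratio of 0.237 (0.133 to 0.415). Cd44, Osmr, Cd109, Emp1, B3gnt5, Steap4, Cxcl10 and Timp1 were named after their values were seen.

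**Figure D2:**
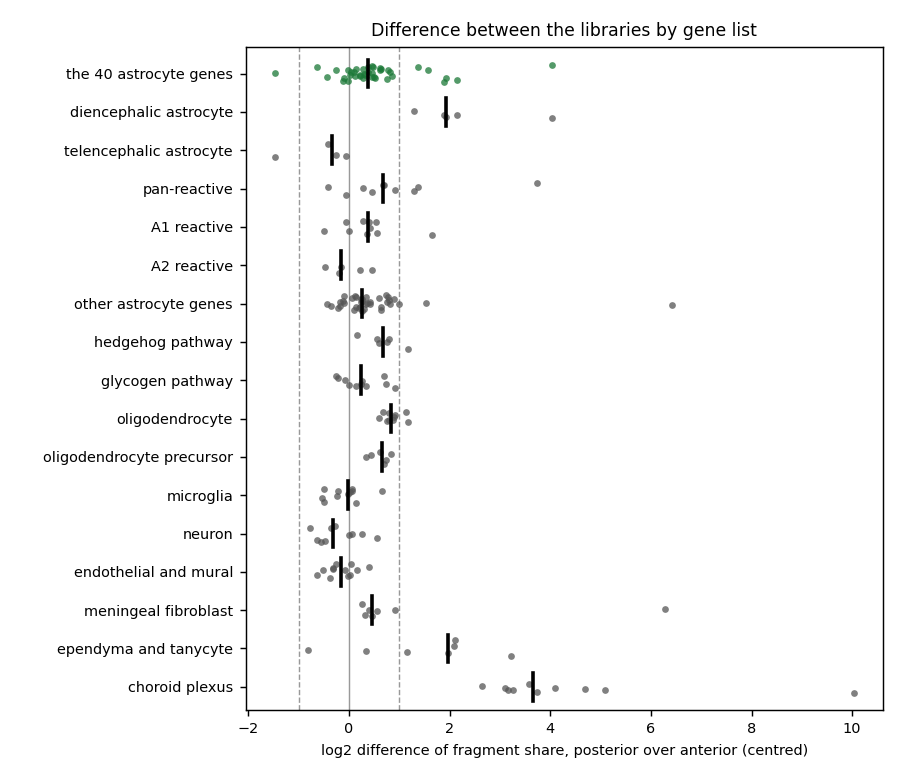
Log2 difference of the fragment share, posterior over anterior and centred on the median gene, for each gene (points) and the median (bar) of each list; dashed lines mark 2-fold. The diencephalic list (median 1.92) lies to the right of the 40 astrocyte genes (0.37), the telencephalic list (-0.34) to the left, and the choroid plexus list (3.65) farthest right.

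Markers of other cell types differed between the libraries too, and some of these cells express genes of the astrocyte set. The choroid plexus list had 10 of 10 genes past 2-fold in posterior tissue, all of which reached the FPKM minimum there alone, with summed shares of 766 FPM there and 4.74 in the anterior library. Of 7 ependymal and tanycyte genes compared 5 were, and 4 of the 7 reached the minimum through the posterior library alone. The summed shares of all 8 genes on that list, with Rax, which was under the minimum, were 78.6 FPM in posterior and 81.4 in anterior tissue. Crym, which neurons also express, had 37.5 FPM in posterior and 66.2 in anterior tissue of these. The 10 oligodendrocyte genes all lay above 0 by share, with a median of 0.84 and summed shares of 7362 FPM in posterior and 3937 in anterior tissue. Of 7 meningeal fibroblast genes 1 passed 2-fold, with summed shares of 632 FPM in posterior and 401 in anterior tissue. The neuronal list had a median of -0.32 and summed shares of 7904 FPM in posterior and 10070 in anterior tissue, and the microglial list a median of -0.02. No marker of these lists was at 0 in the posterior library, and Tmem212 and Rax were at 0 in the anterior library. Choroid plexus, ependymal and meningeal cells are known to express Vim and Sparc, among others, and endothelial cells also make Vim. The part of all these cells in the differences above was not tested.

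In the posterior library, where transcripts were quantified, most astrocyte genes were led by a single protein-coding transcript. The leading transcript held a median of 85.5% of a gene's FPKM, beside 72.0% over 13136 protein-coding genes with an FPKM of at least 1. It held at least 90% in 19 of the 40 genes (47.5%, beside 28.8% of the 13136). It held between 60% and 90% in 9 and under 60% in 12, and 6 genes have a single annotated transcript. In 39 of the 40 genes the leader was annotated protein coding, as it was in 93.8% of the 13136. Shares by FPKM favour short transcripts, and the deposited table gives no estimation error, so these shares carry no interval.

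The transcripts shown above took unequal parts. Slc4a4-207 held 67.4% and Slc4a4-208 held 20.3%, or 86.5% and 11.0% of the fragments. The pair that differs by CAG was split more evenly in Sparc, with 57.1% in Sparc-201 and 42.0% in Sparc-202. In Fgfr3 the form without CAG, Fgfr3-201, held 40.1%, the form with it, Fgfr3-209, held 15.6%, and Fgfr3-210, with the coding sequence of Fgfr3-201, held 10.4%. Beyond the leaders, 15 protein-coding transcripts held at least 10% of their gene's FPKM and had a coding sequence to compare. Of these 3 had the annotated coding sequence of the leader and 12 had one that differs from it. A differing sequence need not be another form, since some are annotated in part only. The 1789 coding bases of Gli3-202 are the first 1789 of its leader. Some of these transcripts held less by fragments, as did Slc6a9-204 with 20.7% of the FPKM and 8.42% of the fragments.

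Aqp4 is known to make a long and a short protein, M1 and M23, from different first methionines. Aqp4-201, with 969 coding bases, held 77.8% of Aqp4. Aqp4-210, with the last 903 of those bases and a start 759 bases downstream, held 6.01%. Aqp4-212, not in the annotation used here, held 13.9%. Transcript shares do not measure the proteins, since the short form can also be translated from the longer RNA.

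Some genes had transcripts with separate annotated starts. Use of the starts was not measured apart from the transcript estimates. Starts within 500 bases of the next were joined into a group. By fragments, 4 of the 40 genes had at least 25% in a second group. How many of all protein-coding genes did was not computed, so this count cannot be called high or low. Rfx4 had 55.7% of its FPKM in Rfx4-202, and 40.2% in Rfx4-203, which starts 82086 bases downstream and has 1923 coding bases against 2205. Acsl6 had 52.95% in a group of starts at chromosome 11 between 54303798 and 54304202 and 41.5% in a group between 54314896 and 54314988. Chrdl1 had 71.3% and 28.7% in its leading 2 groups, which lie on chromosome X. In Phkg1 the second group was a processed transcript, Phkg1-205, with 34.0% of the FPKM. It is 2119 bases long and lies inside the gene (chr5:129869859-129871977), and whether RNA starts there was not tested.

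Other genes carried transcripts that are not annotated as protein coding. Such transcripts held at least 10% of the FPKM in 13 genes, but at least 10% of the fragments in only 4 of the 40 genes, Phkg1 (41.6%), Ntsr2 (31.5%), Itih3 (23.5%) and Gjb6 (13.2%). The same shares over all protein-coding genes were not computed, so these counts cannot be called many or few. In Ntsr2 the retained-intron transcript Ntsr2-205 held 31.5% of the fragments, and in Itih3 the retained-intron transcript Itih3-204 held 23.2%. Prdm16 was led by the short processed transcript Prdm16-211 with 31.2% of its FPKM, but by the protein-coding Prdm16-204 with 40.0% of its fragments. Gli1 had 31.8% of its FPKM but 5.98% of its fragments in the retained-intron transcript Gli1-205.

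**Figure D3:**
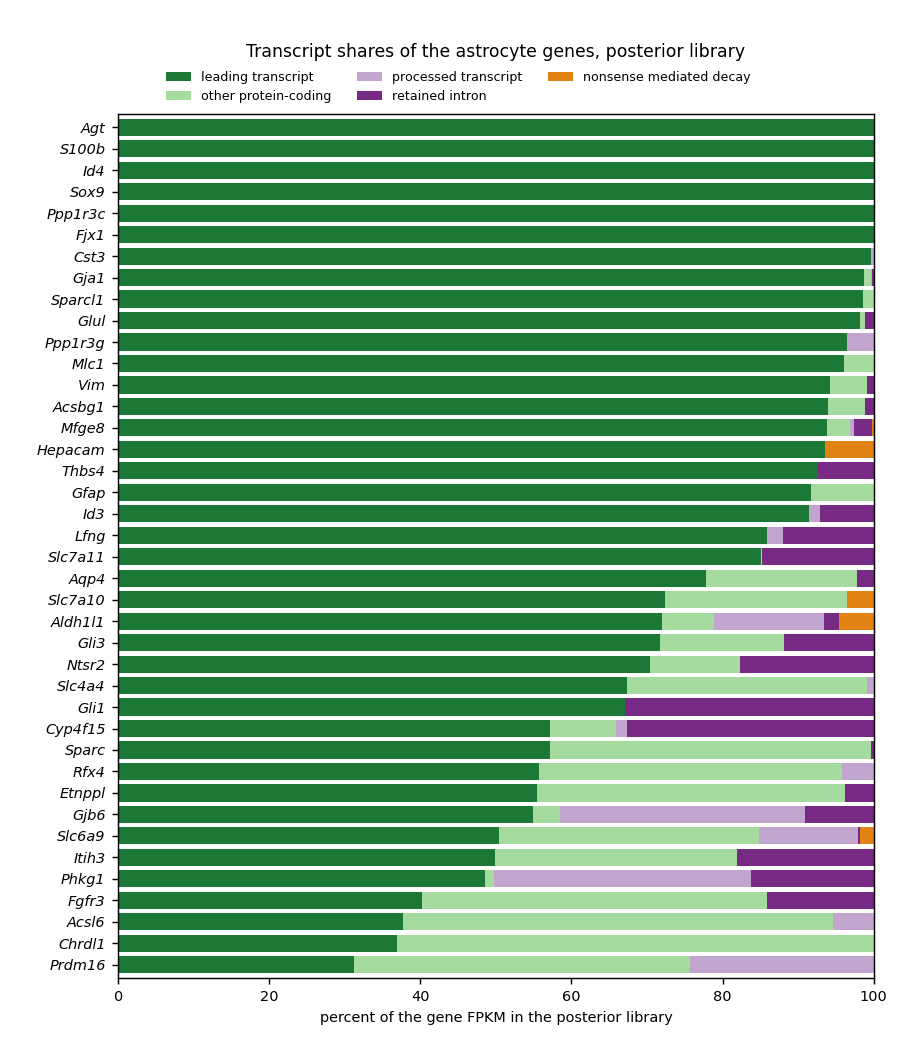
Percent of each astrocyte gene's FPKM in the posterior library held by its leading transcript, by other protein-coding transcripts, and by processed, retained-intron and nonsense-mediated-decay transcripts. Genes are ordered from a leading share of 100% to the lowest, 31.2% in Prdm16, whose leader is a processed transcript.

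The stretches before the start sites of 3 genes of the regional lists are shown. Agt and Sparc had shares at least 2-fold higher in posterior than in anterior tissue, and Mfge8 did not. RefSeq start sites (GRCm38.p6) were found for 34 of the 40 genes, and Aqp4, Sparcl1, Chrdl1, Fjx1, Sox9 and Gli1 were not matched. Of the 34 sites, 23 lay within 100 bases of the start of the gene's leading transcript. The site of Vim lay 359 bases and that of Prdm16 302021 bases away, and for Agt no distance could be taken. The windows of such genes need not be the promoters in use. The 250 bases before the start are given for Agt (chr8:124569707-124569956, minus strand), Sparc (chr11:55420081-55420330, minus strand) and Mfge8 (chr7:79149061-79149310, minus strand), with motif matches in capitals.
Agt: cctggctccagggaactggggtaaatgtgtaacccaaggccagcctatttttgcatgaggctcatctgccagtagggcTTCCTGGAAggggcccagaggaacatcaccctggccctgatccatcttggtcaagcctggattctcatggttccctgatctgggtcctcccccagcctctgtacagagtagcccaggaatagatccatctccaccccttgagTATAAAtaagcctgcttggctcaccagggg
Sparc: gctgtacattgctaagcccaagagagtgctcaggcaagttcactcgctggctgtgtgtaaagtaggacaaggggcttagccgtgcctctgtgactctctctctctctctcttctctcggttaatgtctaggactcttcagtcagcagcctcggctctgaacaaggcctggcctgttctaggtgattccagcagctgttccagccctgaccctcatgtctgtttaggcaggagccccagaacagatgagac
Mfge8: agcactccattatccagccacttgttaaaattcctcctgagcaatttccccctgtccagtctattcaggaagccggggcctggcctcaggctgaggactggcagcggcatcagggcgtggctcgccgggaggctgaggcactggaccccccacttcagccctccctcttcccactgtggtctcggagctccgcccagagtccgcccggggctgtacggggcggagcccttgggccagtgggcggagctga
Motif letters were searched on both strands, and shares are given beside those of 32851 RefSeq promoters of the same length. The STAT letters TTCNNNGAA were found in 4 of the 34 genes (Slc7a11, Acsbg1, Agt and Ntsr2), or 11.8%, beside 7.02% of all. Agt held them as TTCCTGGAA, 172 bases before its start. The TATA box letters TATAAA were in 2 of the 34 genes, Vim and Agt, or 5.88%, beside 12.4% of all, and in Agt they lay 30 bases before the start. The single NFI site TTGGCA was in 4 of the 34 genes (Hepacam, Etnppl, Phkg1 and S100b), or 11.8%, beside 12.3% of all. The NFI palindrome, which can overlap the single site, was in 0 of the 34, beside 0.0365% of all promoters. The SOX letters AACAATG were likewise in 0 of the 34 astrocyte genes, beside 3.29% of all promoters. The GLI letters TGGGTGGTC were also in 0, where 0.225% of all promoters held them. The homeodomain letters TAATTA were in 0 as well, where 4.84% of all promoters held them. The windows of the 34 genes had a median GC content of 59.2%, beside 52.4%. A match of letters is no evidence of binding.

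**Figure D4:**
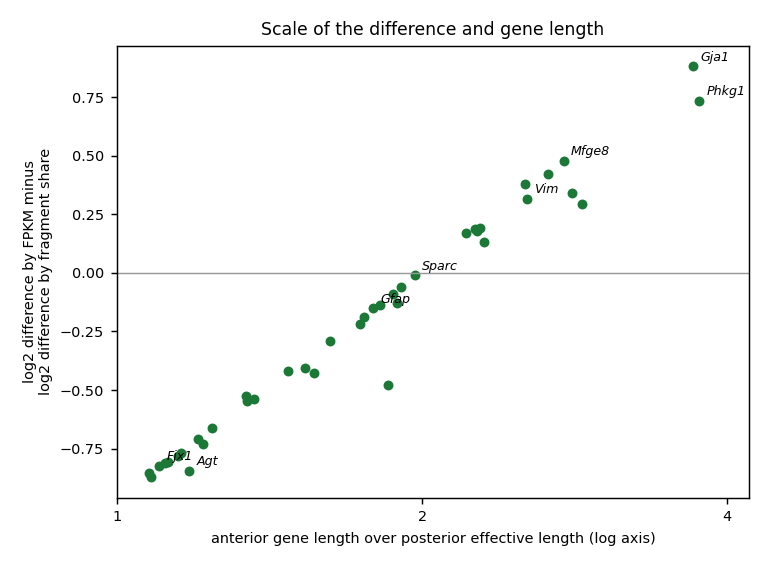
For each astrocyte gene, the log2 difference by FPKM minus that by fragment share (vertical axis) against the anterior gene length divided by the posterior effective length (horizontal log axis). The gap runs from -0.87 in Id4, whose lengths differ by 1.08 times, to 0.88 in Gja1, whose lengths differ by 3.70 times. Both axes are computed from the same lengths, so the relation follows from the definition of the scales and is no finding about the genes.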

How the data were processed

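Polyadenylated RNA of 2 brain tissue samples was sequenced, 1 library per position. Per the submitters' processing notes, reads of the anterior library were aligned with HISAT2 2.0.5 to mm10, and the deposited file gives FPKM per gene; for the counting program, annotation and strand setting the sources used here give nothing. Per the labels' protocols, the posterior library was quantified with Salmon against GENCODE transcripts, and the deposited file gives estimated counts and TPM per transcript. Its TPM were used only as an alternative for the count of genes among the highest 10%. Positions were read from the extraction protocols.

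Anterior fragments were recovered from the deposited FPKM: FPKM times gene length was a whole multiple of 27.4 in 100% of 54532 genes (tolerance 0.001). Posterior FPKM was computed from estimated counts, effective length and the total. Genes were joined by identifier without version. Protein-coding genes whose FPKM reached 1 in one library or both, 13339 in all, were compared by fragment share (totals 134495505 posterior and 42447919 anterior), with a pseudocount of 0.5. With no molecular identifiers, fragments can be copies of one molecule. Exonic overlap and shared 31-base words came from GENCODE vM21 (GRCm38), which also gave coding sequences and starts for 215 of 219 transcripts of the 40 genes. The code that computes log2 differences and intervals was checked on simulated counts, which is no test of the libraries. Python 3.11.15, numpy 2.4.6, scipy 1.17.1 and pandas 2.3.3 were used.

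The members and lists were chosen with earlier results of these data known. All 40 genes are named; the values of 1 other gene and 1 sequence are not reported here. Of other lists the most abundant gene and up to 3 with the largest differences were to be named; Crym, Tmem212 and Rax were named after their values were seen. Alternatives changed the scale, pseudocount, filter, centring, total, transcripts summed, genes kept and fold. No paired analysis was possible because each position had 1 library.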

Additional observations from a re-analysis of the deposited data

How the results depend on the processing

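No paired analysis was possible because each position had 1 library. Under the 10 alternative settings run for each gene, 0 of the 7 genes past 2-fold changed sign, and each kept its call wherever it was compared. By FPKM in place of fragment shares 3 genes were added, Gja1 and Phkg1 in the posterior and Fjx1 in the anterior library, so that 2 genes in place of 1 were past 2-fold in the anterior library, and the median moved to 0.11 for the 40 genes and 2.05 for the diencephalic list. With an FPKM of at least 5, 33 of the 40 were left. Chrdl1 was not among them, so 0 of the 40 genes and 0 telencephalic genes were past 2-fold in the anterior library, and the medians were -0.23 for the telencephalic and 1.01 for the pan-reactive list. At 1.5-fold 13 of the 40 genes were past the threshold in the posterior library (32.5%, beside 15.1% of all genes) and 2 in the anterior library (5%, beside 5.53%), and 6 pan-reactive genes were past it in the posterior library. With protein-coding transcripts only, 39 of the 40 genes were left and 3 of their differences had the other sign. The telencephalic median was then -0.26. With only genes without overlap or shared sequence, 32 of the 40 were left and the diencephalic median was 2.07. Centred on the other astrocyte genes, an alternative chosen after seeing the data, the medians were 0.11 for the 40 genes, 1.66 for the diencephalic, -0.60 for the telencephalic and 0.42 for the pan-reactive list. With only genes past the FPKM minimum in both libraries, also chosen after seeing the data, the pan-reactive median was 0.46. At 1.5-fold 9 of the 36 astrocyte genes outside the diencephalic list were past the threshold in posterior tissue and 2 in anterior tissue. By estimated fragments, 7 genes in place of 12 had a leading transcript under 60%. Where no cause is named, the cause was not tested. With 1 library per position, none of these values measures the spread between animals.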

Other observations

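Genes of the hedgehog pathway outside the 40 lay above 0 by fragment share. Of 7 such genes 6 reached the FPKM minimum, 2 of them (Shh and Gli2) through the posterior library alone. Their median difference was 0.67 by share and 0.19 by FPKM. Of the 6, 1 (16.7%, beside 8.19% of all genes), the hedgehog-binding protein gene Hhip, was at least 2-fold higher in posterior tissue, with 20.4 FPM there and 8.69 in the anterior library. By FPKM 0 passed 2-fold, and Shh, the ligand, 28.3% of whose exonic bases lie under another gene, had a difference of 0.80 by share and -0.10 by FPKM. Gli2, a hedgehog transcription factor named after its values were seen, had a difference of 0.59 by share and -0.32 by FPKM. Ptch1, the receptor that hedgehog signalling also induces, had 87.8 FPM in posterior and 59.1 in anterior tissue.

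Of 11 further glycogen genes 0 passed 2-fold by fragment share, with a median of 0.25. The muscle isoform of glycogen phosphorylase, Pygm, which brain astrocytes also express, had the largest difference (0.92), with 42.9 FPM in posterior tissue and 22.3 in anterior tissue. The brain isoform Pygb had 202 FPM in posterior and 170 in anterior tissue.

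Of 38 other astrocyte genes 2 were at least 2-fold higher in posterior tissue by fragment share, or 5.26%, beside 8.19% of all genes, and 0 in the anterior library. Those were Mt2, a metallothionein with 62.7 FPM in posterior and 0.236 in anterior tissue, and Paqr6, with 9.31 FPM in posterior and 2.87 in anterior tissue. Mt2 reached the FPKM minimum through the posterior library alone. Of its exonic bases 73.5% lie under exons of another gene. Apoe, the most abundant by FPKM, had 990 FPM in posterior and 943 in anterior tissue.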
